A study of Mus musculus with 1152 samples.

Results

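The genes described here were 10 of the 23168 genes measured in single lymphatic endothelial cells (LECs) of the nasopharyngeal lymphatic plexus (NPLP): the ligands Bmp2, Bmp4, Bmp6, Bmp7, Gdf10 and Gdf15, the receptors Acvrl1 and Bmpr2, the coreceptor Eng, and the inhibitory mediator Smad6. They were chosen from their levels in these cells and their place in bone morphogenetic protein (BMP) and growth and differentiation factor (GDF) signalling, so which of them was high in which cells is a description, and no test was made of it. LECs positive for CD31 and PDPN had been sorted, 1 cell per well, from pooled nasopharyngeal mucosa of aged c57bl/6 mice of both sexes, and sequenced with Smart-seq3, a full-length plate method. All cells formed 1 group, aged NPLP LECs. No label named an animal, so the cells analysed (56.9% of those labelled) were 1 pooled sample without replicates. Intervals are exact (Clopper-Pearson) 95% binomial intervals that cover counting error only. Spread between mice is not in them.

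BMPs and GDFs are secreted dimers of the TGF-beta superfamily. BMPs join type I and type II receptor kinases at the cell surface, the type I kinase phosphorylates Smad1, Smad5 or Smad9, and these enter the nucleus with Smad4 and raise targets such as the Id genes, while Smad6 is induced as a brake. Some GDFs use other routes, such as Smad2 and Smad3, or for GDF15 the receptor GFRAL. In endothelium the type I receptor ALK1 (Acvrl1) works with BMPR2 and endoglin (Eng), and signalling through ALK1 is known to be needed for the growth and valves of lymphatic vessels.

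Depth and identity bear on every share. Whole reads recovered from the values ran from 7046 to 10727631 per cell with a median of 148202.5, so shares are also given "at equal depth", after thinning every cell to 20000 reads and leaving out 88 shallower cells. The 7 pan-lymphatic markers were detected in 94.8% to 100% of cells. Fibroblast, mural, haematopoietic and glial lists had medians of 0.915% to 1.83% of cells per marker, apart from single genes such as Dcn in 30.03%. The blood endothelial list lay higher, with a median of 18.7%. Its markers ran from Sele in 1.98% of cells to Plvap in 65.9% and Emcn in 96.2%. Levels are means of the deposited natural log of 1 plus reads per 10000.

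Clustering, from which every TGF-beta and BMP family gene had been left out, gave 5 clusters. Cluster 1 (33.7% of cells) was led by Gm525, Gpx3 and Stab2 and had 6 of 6 Ptx3+ capillary markers raised, so it was called Ptx3+ capillary-like. Cluster 3 (15.7%), led by Tppp3, Fbln7 and Fndc1 with 5 of 5 Ptx3- capillary markers, was called Ptx3- capillary-like. Cluster 5 (72 cells) was led by Fxyd2, Gdf15 and Neo1. It was called upstream-valve-like, with 4 of 6 upstream-valve markers raised against 3 of 6 downstream-valve markers. The margin in counts is narrow, since Cldn11 counts in both lists and the upstream-valve marker Itga9 (0.95-fold) was not raised. Foxc2 (1.23-fold), which stands in both lists, was not raised either. The study separates the valve classes by Gja4, absent upstream and present downstream. In cluster 5 Gja4 was at 0.48-fold, its lowest among the clusters, though 52.8% of the cells had a read. The downstream-valve marker Clu was at 0.38-fold. Cluster 2 (24.8%, led by Apoe, Comp and Clu) had 2 precollecting and 2 downstream-valve markers raised, and cluster 4 (97 cells, led by Ptn, Anxa3 and Stc1) had no class with enough markers, so both stayed unnamed. Of the 6 blood endothelial markers, 2 were raised in cluster 1, 2 in cluster 2, 1 in cluster 4 and 0 in clusters 3 and 5. Median reads per cell ran from 87762 in cluster 4 to 186158 in cluster 2.

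The ligands differed in the cluster where they were highest, and neither Acvrl1, Bmpr2 nor Eng was raised in any. Bmp7 was highest in cluster 1, Bmp4 in cluster 2, and Gdf10 and Gdf15 in cluster 5. A member was called raised when its linear mean, with 0.1 per 10000 reads added, was 2-fold or more that of the other cells together and at least 10% of the cluster's cells had a read. By this limit 4 of the 10 members, all among the 6 ligands, were raised in their leading cluster, and Bmp2, Bmp6, Acvrl1, Bmpr2, Eng and Smad6 were raised in no cluster. Of the 7 members with reads in at least 10% of cluster 1, 1 was raised there, beside 1.44% of all genes so detected. The count was 1 of 7 in cluster 2 (0.789% of all genes), 0 of 8 in cluster 3 (1.34%), 0 of 7 in cluster 4 (0.741%) and 2 of 7 in cluster 5 (1.71%). Since the members were chosen on these levels, nothing is read from the distance to those shares.

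Taken per kilobase of exon, which allows levels of different genes to be set side by side, mean levels over all cells were 3.01 reads per 10000 per kb for Eng and 2.30 for Gdf15. Acvrl1 followed at 0.616 and Bmp4 at 0.414. Bmp7 (0.133), Bmp6 (0.115) and Gdf10 (0.0815) came next, then Bmpr2 at 0.0429 over its long exon length of 17.983 kb. Eng, a receptor component, and Gdf15, a ligand, thus stood above the rest by this mean, and Bmp2 (0.0011) and Smad6 (0.0006) lay far below. For Gdf15 the mean rests on few cells, since the highest 5% of cells held 70.9% of its level. Its median log value was 0.02, against 0.86 for Acvrl1. Over the 10 members the median share of cells with a read was 32.7%, in a range from 0.457% (Bmp2 and Smad6) to 99.2% (Eng). Over all genes it was 5.03%, but the members were chosen on their levels, so nothing is read from the difference.

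**Figure D1:**
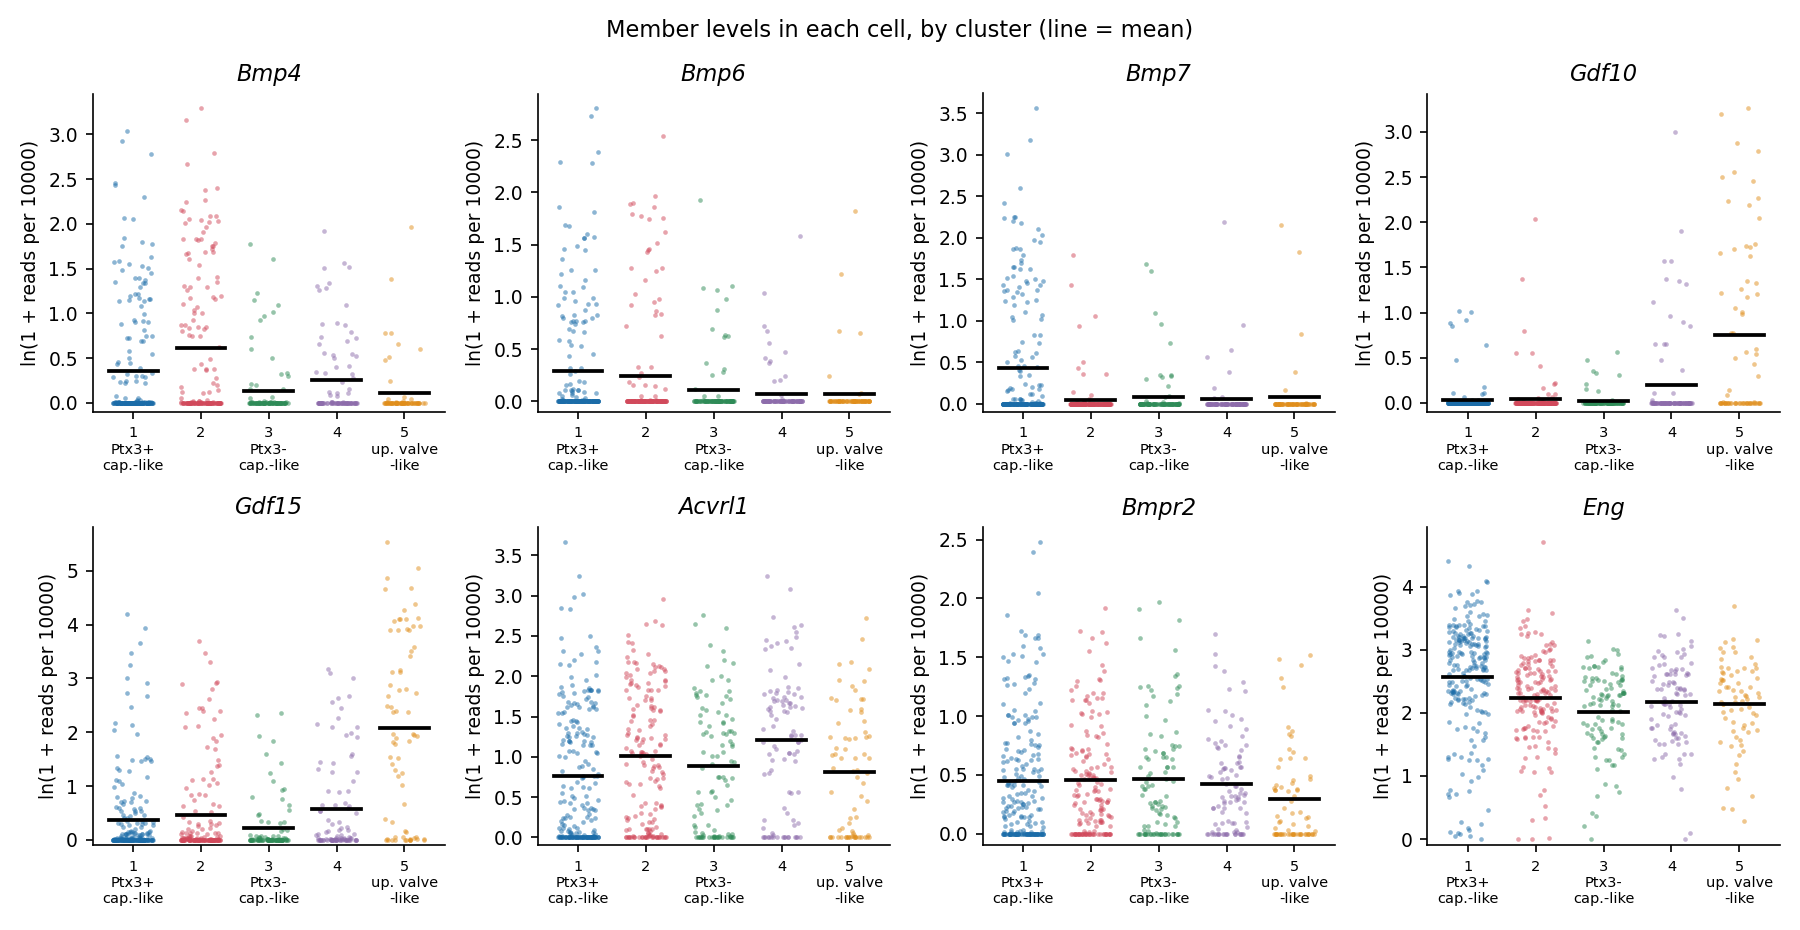
Deposited value of each of 8 members in every cell (natural log of 1 plus reads per 10000, vertical axis), by cluster (horizontal axis); 1 point is 1 cell and the line is the cluster's mean. Bmp7 is highest in cluster 1, Bmp4 in cluster 2, and Gdf10 and Gdf15 in cluster 5, whereas Eng, Acvrl1 and Bmpr2 are spread over every cluster.

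Gdf15 (chromosome 8, 70629393 to 70632456, minus strand, GRCm38), a divergent, stress-inducible ligand whose known receptor GFRAL is a neuronal protein, had the largest fold between a cluster and the other cells. In the upstream-valve-like cluster 5 its values ran from 0 to 5.53 with a median of 1.96, and 68.1% of cells were above 1. In the other clusters the medians ran from 0 to 0.04 and the highest cell reached 4.20, so the ranges overlapped although most cluster 5 cells lay above most others. At equal depth 71.9% of cluster 5 cells had a Gdf15 read (interval 59.2 to 82.4), 39.8% of cluster 4 (29.2 to 51.1), 28.1% of cluster 2, 26.98% of cluster 1 and 16.3% of cluster 3. The interval of cluster 5 lay above that of every other cluster, while those of clusters 1, 2 and 4 overlapped one another. Its linear mean in cluster 5 was 14.9 times that of all other cells, and cluster 5, with 10.98% of the cells, held 66.04% of the summed level.

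Gdf15 was the member for which depth mattered most among the ligands: it had reads in 57.2% of all cells but in 32.6% at equal depth, and cells with a read had a median of 200828 reads against 87225 without. The value was above 1 in 20.9% of cells. Because the gene is also known to respond to stress, its level was set beside a list of dissociation-response genes measured in the same cells. Spearman's rho was 0.11 over all cells and 0.12 over the thinned cells, which share their wells and libraries. That list had a median sum of 371.1 reads per 10000 in cluster 5, within the 286.4 to 397.1 of the other clusters. The part of dissociation in the Gdf15 level was not tested.

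Gdf10 (chromosome 14, 33923587 to 33937983, plus strand), also called BMP3B and related to BMP3, had the same order of clusters by mean log value, though not by share of cells. In cluster 5 its values ran from 0 to 3.26 with a median of 0.05, and 52.8% of cells had a read. Every other cluster had a median of 0, and in cluster 3 no cell went above 0.56. At equal depth 51.6% of cluster 5 cells (38.7 to 64.2) had a Gdf10 read, 13.3% of cluster 4 (6.81 to 22.5), 5.81% of cluster 3, 5.48% of cluster 2 and 1.59% of cluster 1. The cluster 5 interval again stood clear of the rest. The fold over all other cells was 12.3, and 71.9% of the summed level lay in cluster 5. Gdf10 was also the most concentrated of the members found in more than a few cells, since the highest 5% of cells (33 cells) held 86.5% of its level.

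Both ligands were often in the same cells. Of the 60 thinned cells with Gdf10, 39 also had Gdf15, whereas Gdf15 was found in 32.6% of all thinned cells. Spearman's rho between them was 0.30 over the thinned cells and 0.26 within cluster 5 alone, as a description over cells of 1 pool. It was 0.30 in cluster 3 as well, 0.07 in cluster 4, 0.03 in cluster 1 and 0.0045 in cluster 2, and each of these 4 clusters had 3 to 11 thinned cells with Gdf10. The genes whose levels over thinned cells were most like that of Gdf10, among 7752 genes found in at least 10% of them, were Slc41a1, a magnesium transporter (rho 0.31), Nupr1, a stress-inducible nuclear protein (0.30), Gdf15, Plat, the tissue plasminogen activator (0.28), and B4galt4 (0.28). For Gdf15 they were Slc41a1 (0.32), Gdf10, Gsn, which encodes the actin-severing protein gelsolin (0.30), Plat (0.29) and Cd24a (0.28). Slc41a1 and Plat stood in both lists. Their lowest values were with Mmrn1 for Gdf10 (-0.29) and with Reln for Gdf15 (-0.24).

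The promoters of the pair highest in cluster 5 are shown because they differ widely in base composition although the genes shared a leading cluster. The stretches run from 250 bases before to 50 after the RefSeq start (GRCm38.p6), Gdf10 at chr14:33923337-33923636 on the plus strand and Gdf15 at chr8:70632407-70632706 on the minus strand, with CpG dinucleotides in capitals.
Gdf10: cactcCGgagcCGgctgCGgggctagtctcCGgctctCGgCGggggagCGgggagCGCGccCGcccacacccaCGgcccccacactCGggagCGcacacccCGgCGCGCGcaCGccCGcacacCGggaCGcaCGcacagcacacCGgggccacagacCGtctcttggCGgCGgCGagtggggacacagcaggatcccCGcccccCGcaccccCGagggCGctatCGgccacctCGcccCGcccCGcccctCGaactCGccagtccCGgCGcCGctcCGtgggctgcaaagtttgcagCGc
Gdf15: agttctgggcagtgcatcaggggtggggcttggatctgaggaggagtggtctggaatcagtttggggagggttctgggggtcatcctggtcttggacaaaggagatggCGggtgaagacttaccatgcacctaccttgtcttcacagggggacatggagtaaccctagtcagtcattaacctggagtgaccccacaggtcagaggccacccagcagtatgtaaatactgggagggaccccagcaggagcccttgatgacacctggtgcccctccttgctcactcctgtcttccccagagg

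Gdf10 had 42 CpG in these 300 bases and 77.3% GC, at the 96.97th percent rank of the promoters of the table by CpG number. Gdf15 had 1 CpG at this start and 7 CpG at a second listed start nearby, where the median over all promoters was 7. Promoters were matched for 7 of the 10 members. Those of Bmp2, Bmp7 and Acvrl1 were not used here. Among the others the CpG number was 12 for Bmp4, 27 for Bmp6, 23 for Bmpr2, 6 for Eng and 31 for Smad6. GGCGCC, a palindrome that SMAD1 and SMAD5 are known to bind, was found in Gdf10 (from position 17 after the start) and Bmpr2, beside 11.9% of 32851 promoters. The GATA factor motif AGATAA, held by 11.2% of promoters, and the forkhead motif TGTTTA, held by 13.4%, searched on both strands, were found in no matched member. A match of letters is a description only and says nothing of binding.

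Bmp7 (chromosome 2, 172868012 to 172940321, minus strand), a classical BMP that signals through Smad1 and Smad5, was the ligand of the Ptx3+ capillary-like cluster 1. There its values ran from 0 to 3.56 with a median of 0, and 40.7% of cells had a read. In the other clusters 8.25% to 16.5% of cells had one and the highest value was 2.19. Most cells of cluster 1 therefore overlapped with the rest at 0, and it was the cells above 0 that set this cluster apart. At equal depth the share was 32.8% (26.2 to 39.99) in cluster 1 and 4.79% to 8.14% elsewhere, with no other interval reaching above 16.1%. The fold over all other cells was 6.28, and 84.1% of the summed level lay in cluster 1, which had 33.7% of the cells.

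Cells were also split by single capillary markers, without clustering. Among thinned cells, Bmp7 was found in 38.5% of the 52 cells with Ptx3 (25.3 to 52.98) and in 12.8% of those without. With Stab2, a hyaluronan scavenger receptor, it was 31.1% of cells against 7.93% without. With Ptn it went the other way, at 8.55% of cells (4.63 to 14.2) against 17.5% (14.01 to 21.6), with intervals that just overlapped. With Fndc1, also a Ptx3- capillary marker, the shares were close, at 16.04% against 14.6%. With Lyve1 Bmp7 was in 16.9% (13.5 to 20.6) against 8.55% (4.17 to 15.2), with overlapping intervals. The genes most like Bmp7 were Gm525 (rho 0.37), the water channel Aqp1 (0.36), Stab2 (0.34), Igfbp4 (0.32) and Gpx3 (0.32), of which Gm525, Gpx3 and Stab2 were also the leading genes of cluster 1. Its lowest rho, -0.32, was with Vim.

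Bmp6 (chromosome 13, 38345107 to 38500302, plus strand), which in liver endothelium is known as the ligand that sets hepcidin, was also highest in cluster 1 but far less sharply. Its mean was 0.29 in cluster 1 and 0.24 in cluster 2, then 0.11, 0.07 and 0.07 in clusters 3, 4 and 5. Values reached 2.81 in cluster 1 and 2.54 in cluster 2, and every cluster had a median of 0. At equal depth 24.9% of cluster 1 cells (18.9 to 31.7), 17.1% of cluster 2 (11.4 to 24.2) and 12.8% of cluster 3 had a read, with overlapping intervals. Clusters 4 (8.43%) and 5 (6.25%) lay below cluster 1 beyond counting error. Its fold in cluster 1, 1.95, was just under the limit of 2, as was that of Eng at 1.74, whereas the member just above it was Bmp4 at 2.84. Among the genes most like Bmp6 were Crim1, a transmembrane protein that binds BMPs (rho 0.28), the matrix protein Tnc (0.26), Igfbp7 (0.23) and the integrin Itga1 (0.20).

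Bmp7 and Bmp6, highest in the same cluster, were only weakly related over cells. Spearman's rho between this pair was 0.10 over thinned cells and 0.08 within cluster 1, and 22 cells had both. Of the thinned cells with Bmp7, 25.6% also had Bmp6, which was in 16.5% of all thinned cells.

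Bmp4 (chromosome 14, 46383520 to 46390669, minus strand), the BMP best known for its part in patterning mesoderm and blood vessels, was led by cluster 2. There its values ran from 0 to 3.29 with a median of 0.01, and 52.1% of cells had a read. In clusters 1, 3, 4 and 5 the median was 0, and the highest cells reached 3.04, 1.77, 1.92 and 1.96. At equal depth 41.8% of cluster 2 cells (33.7 to 50.2) had a read, 28.6% of cluster 1 (22.2 to 35.6), 25.3% of cluster 4 (16.4 to 36.04), 9.38% of cluster 5 and 6.98% of cluster 3. The interval of cluster 2 overlapped those of clusters 1 and 4 at its lower end, while cluster 3 lay below these 3 clusters and cluster 5 below clusters 1 and 2. Of the ligands raised in a cluster Bmp4 was the most spread, with 51% of its summed level in cluster 2 and 34.9% in cluster 1.

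Splits by single precollecting markers differed in direction for Bmp4, though only those by Foxp2 and Apoe went beyond counting error. It was found at equal depth in 33.5% of the cells with Foxp2 (27.6 to 39.7) against 20.3% of those without (16.04 to 25.1). With Apoe, a marker chosen for this after the data were seen, it was 32.7% (27.6 to 38.2) against 17.6% (13.1 to 22.9). With Lyve1, which stands in the list of precollecting markers and in that of Ptx3- capillary markers, it went the other way. The shares were 24.2% (20.3 to 28.4) against 33.3% (24.9 to 42.6), with overlapping intervals. With Gja4, a downstream-valve marker, Bmp4 was in 30.6% (24.9 to 36.8) against 22.6% (18.2 to 27.6), again with overlapping intervals. Of the Ptx3+ capillary markers, Stab2 had a split of similar size, at 32.2% (25.4 to 39.6) against 23.3% (19.2 to 27.8). With Ptx3 the shares were 23.1% (12.5 to 36.8) against 26.4% (22.6 to 30.4). Both pairs of intervals overlapped. The genes most like Bmp4 were Adm, which encodes adrenomedullin (rho 0.28), the matrix proteoglycan Bgn (0.26), Trp53i11 (0.23), Apoe (0.23) and Crim1 (0.22). Crim1 thus stood in the lists of both Bmp4 and Bmp6.

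Bmp2 (chromosome 2, 133552159 to 133562885, plus strand), the close relative of Bmp4, was found in 3 cells (0.457%, 0.0944 to 1.33), with 2, 26 and 44 reads. Cells with 26 and 44 reads were in cluster 1 and the third was in cluster 3. In cluster 2, where Bmp4 led, it was found in none of the cells, where 3 cells would make 1.84% and the exact interval reaches 2.24%. Genes most like Bmp2 are left out, since they would rest on 3 thinned cells.

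**Figure D2:**
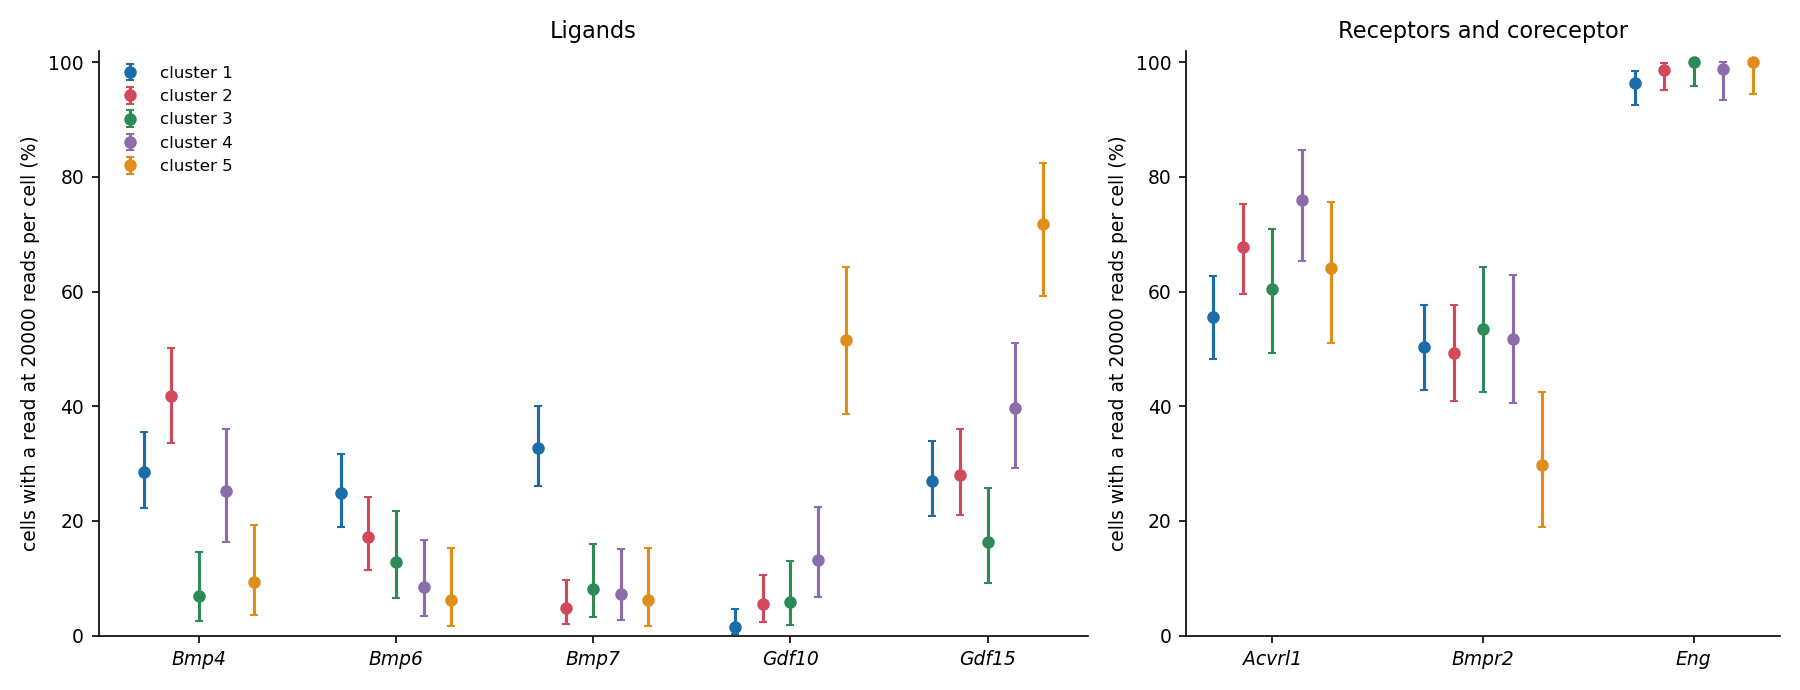
Share of cells with a read of each member after thinning to 20000 reads per cell (vertical axis, percent), for the 5 clusters (colours); bars are exact 95% binomial intervals, for counting error only. Gdf10 and Gdf15 stand out in cluster 5 (51.6% and 71.9%) and Bmp7 in cluster 1 (32.8%), whereas Bmpr2 is lowest in cluster 5 (29.7%) and Eng is at 96.3% or more in every cluster.

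Reads of the ligands were found in different combinations, and a cell without a read may still express the ligand. Gdf15, the ligand for which depth mattered most, had reads in 57.2% of all cells but in 32.6% at equal depth. Whether the combinations differ from those of independent detection was not tested. At equal depth, 32.2% of cells had reads of none of the 6 ligands, 41.2% of 1, 20.2% of 2, 5.63% of 3 and 0.704% (4 cells) of 4. Bmp4 and Bmp7 were together in 23 cells (rho 0.01) and Bmp4 and Gdf10 in 8 cells (rho -0.11). Gdf10 and Bmp7 shared 4 cells (rho -0.08).

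**Figure D3:**
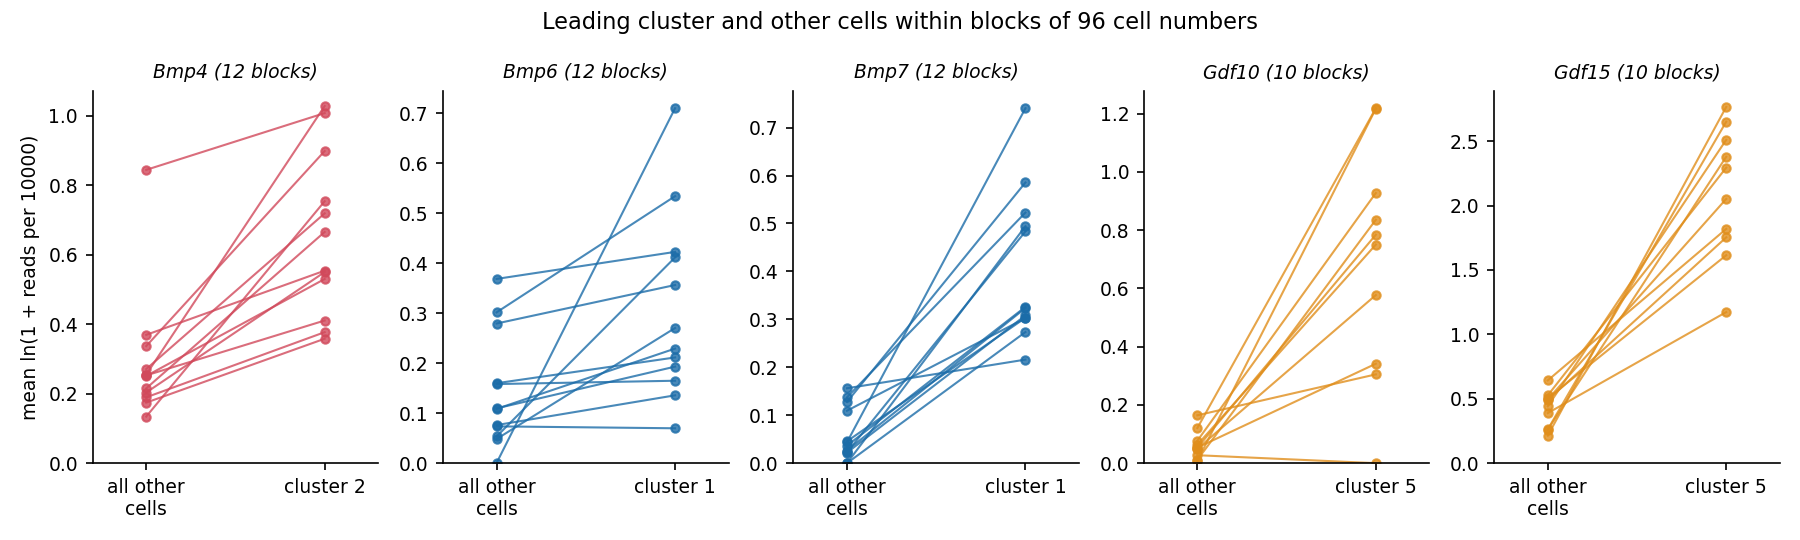
Mean level of 5 ligands (natural log of 1 plus reads per 10000) in the leading cluster and in all other cells, within blocks of 96 consecutive cell numbers that held at least 3 cells of that cluster; each line is 1 block. Lines rise in 12 of 12 blocks for Bmp4 and Bmp7, 11 of 12 for Bmp6, 9 of 10 for Gdf10 and 10 of 10 for Gdf15.

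The cell numbers run in 12 blocks of 96, the size of a plate, though no label calls them plates. All 5 clusters were found in all 12 blocks, and a within-block comparison was made where a block held at least 3 cells of the cluster. Bmp4 and Bmp7 were higher in their leading cluster in 12 of 12 blocks and Gdf15 in 10 of 10. Gdf10 was higher in 9 of 10, with no read in the 5 cluster 5 cells of the remaining block. Bmp6 was higher in 11 of 12. Shares over all cells still differed between blocks, that of Bmp4 running from 29.1% to 83.3% and that of Bmp6 from 12.7% to 55% over blocks of 18 to 83 cells.

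Eng (chromosome 2, 32646595 to 32682669, plus strand), the coreceptor that presents BMP9 and BMP10 to ALK1, was found in almost every cell. It had reads in 99.2% of cells (98.2 to 99.8) and in 98.2% at equal depth. Its values ran from 0 to 4.71 with a median of 2.37. By cluster the mean was highest in cluster 1 at 2.57 ± 0.91 (SD over the cells of that cluster), and then 2.24 in cluster 2, 2.18 in cluster 4, 2.14 in cluster 5 and 2.02 in cluster 3. The clusters overlapped through most of their range, and the linear mean of cluster 1 was 1.74 times that of the other cells. It was higher within cluster 1 in 12 of 12 blocks. Among the ligands, Bmp7 followed Eng most closely over thinned cells, with rho 0.26 (0.22 within cluster 1), and Bmp6 had 0.19.

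Acvrl1 (chromosome 15, 101128522 to 101145336, plus strand), the type I receptor ALK1, was found in 78.5% of cells (75.2 to 81.6) and in 63.4% at equal depth. Its values ran from 0 to 3.67 with a median of 0.86. The mean was 1.21 in cluster 4, 1.01 in cluster 2, 0.88 in cluster 3, 0.81 in cluster 5 and 0.76 in cluster 1, so the order was not that of Eng, its partner. At equal depth 75.9% of cluster 4 cells (65.3 to 84.6) and 55.6% of cluster 1 cells (48.2 to 62.8) had a read, and the other clusters lay between with overlapping intervals. The fold in cluster 4 was 1.54, and Acvrl1 was higher there in 11 of 12 blocks.

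Bmpr2 (chromosome 1, 59763400 to 59879014, plus strand), the type II receptor for most BMPs, was found in 71.6% of cells (68.03 to 75.1) and in 48.4% at equal depth, where its reads are spread over long exons. Values ran from 0 to 2.48 with a median of 0.28. Means were 0.46, 0.45, 0.45 and 0.42 in clusters 3, 2, 1 and 4. They lay within the spread over cells (SD 0.41 to 0.54), with a fold of 1.09 in cluster 3. Bmpr2 was higher in cluster 3 in 7 of the 10 blocks compared. In blocks 1 to 6, with 82 cells of cluster 3, its mean there was 0.38 against 0.42 in the other cells. In blocks 7 to 12, with 21 such cells, it was 0.77 against 0.43. In the upstream-valve-like cluster 5, where Gdf10 and Gdf15 were highest, the mean was 0.30 and 29.7% of cells (18.9 to 42.4) had a read at equal depth, against 49.3% to 53.5% in the others. This interval overlapped those of clusters 2, 3 and 4 at its end.

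Smad6 (chromosome 9, 63953076 to 64022059, minus strand), the inhibitory Smad that BMP signals are known to induce, was at the edge of detection. It was found in 3 cells (0.457%, 0.0944 to 1.33), with 14, 3 and 2 reads in cells of 120426, 512901 and 511260 reads. Cells with 14 and 3 reads were in cluster 1 and the third in cluster 5. In cluster 2 it was found in no cell, with the same limits of 1.84% for 3 cells and 2.24% for the exact interval. At equal depth 1 cell remained, so no lymphatic class can be named for it and genes most like it are left out. Smad7, the inhibitory Smad shared with the TGF-beta branch, was found in 5.18% of cells.

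The rest of the pathway was read from a list of 78 TGF-beta and BMP family genes, of which 56 had deposited values and are called measured. The study removed genes found in fewer than 3 cells, so absence of the others may mean few reads. Of the 56, 28 were found in at least 20% of cells and 3 (Bmp3, Bmp8b and Inha) were at 0. In all 8 were raised in a cluster. These were the 4 ligands above and Acvr2a, Id2, Bambi and Crim1. The folds of Acvr2a, Id2, Bambi and Crim1 were just above the limit of 2, at 2.06 to 2.18. Their calls were not checked under other clustering settings. By cluster the count was 4 in cluster 1, 2 in cluster 2 and 2 in cluster 5, where 1.44%, 0.789% and 1.71% of all genes with reads in at least 10% of the cluster were raised. The list was made with results of these data known, so nothing is read from this. Of the 12 measured BMP and GDF ligands, those neither members nor at 0 were found in few cells. Gdf2, which encodes BMP9, the high-affinity ligand of ALK1, was in 0.610% of cells, Gdf9 in 1.22%, Bmp8a in 1.52% and Gdf11 in 5.03%.

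Other receptors were partly scarce. Bmpr1a, the common type I receptor for BMP2 and BMP4, was found in 1.52% of cells, Acvr1 (ALK2) in 32.5% and Tgfbr1 in 23.3%. Acvr2a, a type II receptor for activins and BMPs, was found in 17.4% and was raised in cluster 1 (2.08-fold), where its mean was 0.13 against 0.02 to 0.09 elsewhere. The TGF-beta receptor Tgfbr2 was in 98.9% of cells and its coreceptor Tgfbr3 in 86.4%. Thus ALK1 was the type I receptor found in most cells, on a scale that is not corrected for gene length.

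Downstream, the receptor-regulated Smads of the BMP branch were common. Smad1 was found in 89.02% of cells and Smad5 in 71.2%, against 36.3% for Smad2 and 30.6% for Smad3 of the TGF-beta branch, and the shared Smad4 in 38.1%. These shares are at full depth and not corrected for gene length, so they do not rank the branches. Of the target genes, Id3 was in 86.9%, Id1 in 43.3% and Id2 in 41.9% of cells. Id2 was raised in cluster 1 (2.17-fold), although its share of cells there, 41.6%, was not above that of all cells. Id1 was highest in cluster 5 (mean 0.63 against 0.36 to 0.50) and Id3 ranged from 1.05 in cluster 3 to 1.54 in cluster 1. Neither Id1 nor Id3 was raised by the limit of 2. Bambi, a pseudoreceptor that blocks signalling, was raised in cluster 2 (2.06-fold) with Bmp4, at a mean of 0.76 against 0.25 to 0.46. The ubiquitin ligases Smurf1 and Smurf2, which remove Smads and receptors, were in 32.3% and 51.5% of cells.

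Among the secreted or membrane modulators, Crim1 was found in 80.3% of cells and raised in cluster 1 (2.18-fold). Fstl1, a follistatin-like glycoprotein, was in 86.6% and had its highest mean in cluster 4 (1.65) and its lowest in cluster 1 (0.71), with a fold of 1.83. Twsg1 was in 55.5%. The antagonists Chrd and Fst were found in 0.457% and 0.762% of cells, Kcp in 1.52%, Fstl3 in 4.27% and Nbl1 in 15.4%. The TGF-beta ligands Tgfb1, Tgfb2 and Tgfb3 were in 37.96%, 43.3% and 71.2%, and none was raised in a cluster.

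**Figure D4:**
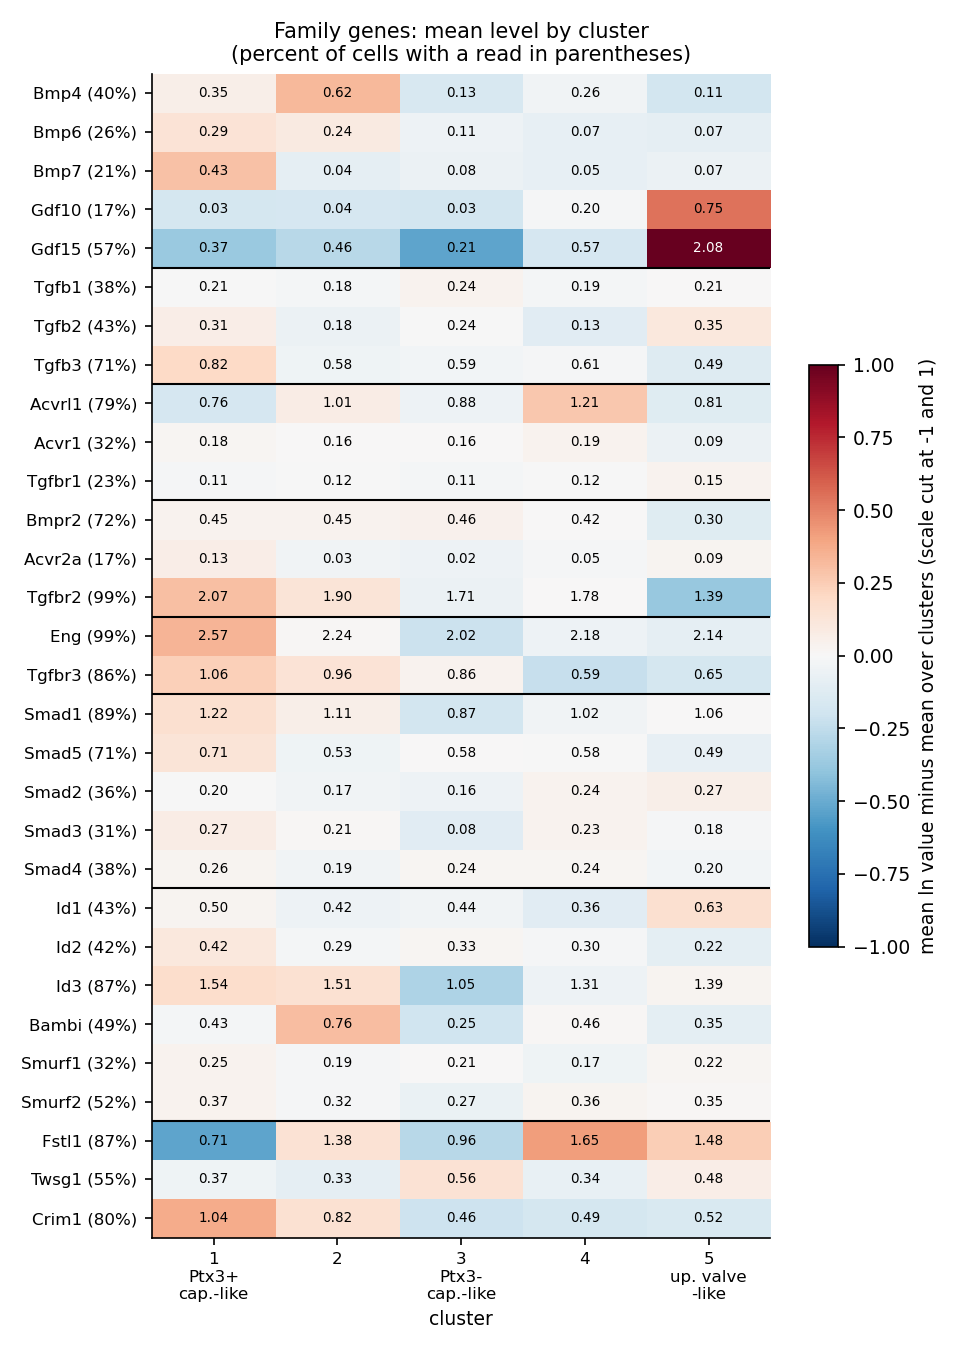
Mean natural log value by cluster (number in each cell of the grid) of the 30 family genes found in at least 20% of cells or raised in a cluster, with the percent of cells with a read beside the name; colour is the difference from the gene's mean over the 5 clusters, lines divide ligands, receptors, Smads, targets and modulators. Gdf15 reaches 2.08 and Gdf10 0.75 in cluster 5, Bambi 0.76 and Bmp4 0.62 in cluster 2, and Bmp7 0.43 and Crim1 1.04 in cluster 1.

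Markers of other cell types were set beside the ligands. The summed glial list was 0.991 reads per 10000 in cells with Gdf10 and 0.0578 in those without, and 1 cell held 72.1% of the whole glial sum; without it the values were 0.0679 and 0.0578. The mural sum in cells with Bmp6 was 0.849 against 0.0847, and 0.0508 against 0.0847 without 1 cell. The fibroblast sum with Gdf10 was 1.93 against 0.808, and 0.742 against 0.808 without 1 cell. With the 49 cells that had any glial read left out, the Gdf10 fold in cluster 5 was 12.9, and with the 46 cells with any mural read left out the Bmp6 fold was 1.90.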

How the data were processed

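Single LECs of aged NPLP, sorted as CD31+ PDPN+, were profiled with Smart-seq3. Per the methods and the submitters' processing notes, the authors aligned reads to mm10 with STAR, counted genes with featureCounts of Subread, and filtered and normalized cells with Seurat 4.1.0, keeping cells with at least 2000 genes and at most 10% mitochondrial reads. The deposited values are natural logs, ln of 1 plus reads in 10000: the methods name log2, but the exponential minus 1 summed to 10000 in every cell, against 2848.75 to 4937.53 with base 2. Read as such, 100% of values above 0 were whole reads within 0.01. Reads, not unique molecules, were counted, so intervals cover counting error only, and of 1152 labelled cells 656 were analysed and 496 were not analysed here. At equal depth there were 568 cells.

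Clusters were made in Seurat 5.3.0 (R 4.3.3) by the study's steps: genes in at least 3 cells, 2000 variable genes without family genes, regression of total reads, mitochondrial, dissociation and ribosomal scores, 15 principal components, and the lowest Louvain resolution from 0.1 upward that gave 5 clusters (0.7), of 221, 163, 103, 97 and 72 cells. A cluster was named when at least 3 markers of a class were raised 1.5-fold, more than of any other class and not outnumbered in its 10 leading genes. Cells had been sorted 1 per well, and no doublets were called; 4 cells had reads of both Xist and a Y-linked gene in this pool of both sexes, and were left out as an alternative. Other steps used Python 3.11.15 with numpy 2.4.6, scipy 1.17.1 and pandas 2.3.3, and were tested on simulated data.

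Named genes were the members, family genes found in at least 20% of cells or raised, the 5 genes most like each ligand and Smad6 by Spearman's rho, the 3 leading genes of each cluster, and cell type markers, of which a few are not reported here. The members, lists and rules were chosen with earlier results of these data known. Gene positions and exon lengths came from GENCODE M21 (GRCm38, the assembly of mm10) and promoters from RefSeq. With 1 pooled sample, no test was made.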

Additional observations from a re-analysis of the deposited data

How the results depend on the processing

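The count of 4 members raised in their leading cluster stayed at 3 to 5 under 16 of 18 alternatives, of which 9 changed the clustering, and was 7 with a limit of 1.5-fold and 1 (Gdf15) when a difference of mean natural logs of at least ln 2 was asked. Gdf10 (11.3- to 16.6-fold), Gdf15 (13.7 to 23.4) and Bmp7 (2.40 to 7.67) were raised in the matched cluster under all 9 clustering alternatives. Bmp4 was raised under 6 of 9. Its fold was 1.57 with 10 and 1.74 with 30 principal components and 1.09 without regression. The matched cluster held more cells in these settings. Bmp4 was highest in the matched cluster each time, but without regression that cluster overlapped cluster 2 by only 30.5%. Bmp6, just under the limit, passed it in the matched cluster under 5 of 9, another random seed among them, and in another cluster without regression. The highest cluster of Bmpr2 was the matched one in 3 of 9.

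The median share of cells with a member, 32.7%, was 11.4% for values above 1, 21.3% at 20000 reads per cell and 36.8% in blocks 7 to 12. Under the other 4 alternatives it ran from 30.3% to 35.4%. Among the added settings, chosen after the data were seen, Bmp6 joined the raised members in cells of at least 20000 reads and with levels from thinned reads (5 members each), and leaving out 25 cells with several fibroblast markers left 4. No paired analysis was possible because all cells were of 1 group. Limits are the single pool without animal labels, clusters cut from the same cells, read counts without molecular identifiers, and shares of rare members that depth bounds.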
